A study of Homo sapiens with 18 samples.

Results

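Transcripts of cholesterol synthesis and of its SREBP regulators were followed by RNA-seq in a pair of lung cancer cell lines after depletion of YAP or of TAZ. The set holds 30 genes, found by symbol among the 18978 genes listed for H1299 and the 20335 listed for A549. All 30 are in both tables and all 30 passed the filter on low counts in each line. It comprises 5 regulators, 7 enzymes of the early mevalonate steps, 11 enzymes from squalene to cholesterol, the sterol carrier STARD4 and 6 fatty acid genes. The 7 and 11 are called the 18 cholesterol enzymes below. The set was proposed with the SREBF2 pattern in H1299 already known, so that pattern is given as a description of these libraries.

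YAP (gene YAP1) and TAZ (gene WWTR1) are related coactivators that bind TEAD transcription factors on DNA and are held back by the Hippo kinases. The groups are H1299 siYAP, H1299 siTAZ, A549 siYAP and A549 siTAZ, each set against its own line's siControl, H1299 siControl and A549 siControl, with 3 libraries in each of the 6 groups. All cells, controls included, had received 30 nM siRNA (a pool against YAP or TAZ, or a control siRNA) for 48 h and had no serum for the last 18 h, so every level is one of serum-starved, transfected cells. Both lines are human non-small cell lung cancer. H1299 came from a lymph node metastasis, and A549 is an adenocarcinoma line. They were grown in different media and tabulated apart, so line, medium and experiment cannot be told apart. Nothing in the labels ties replicates to separate cultures. Each p-value therefore speaks for scatter between these libraries, estimated over all groups of a fit, and that scatter may be technical.

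Cells make cholesterol from acetyl-CoA through mevalonate, isoprenoid diphosphates, squalene and lanosterol. The genes of the route are transcribed by SREBP-2, the product of SREBF2, and fatty acid genes more by SREBP-1, the product of SREBF1. SREBP precursors sit in the membrane of the endoplasmic reticulum bound to SCAP, which carries them to the Golgi for cleavage when sterols are low. INSIG1 and INSIG2 hold SCAP back when sterols are plentiful. SREBF2 and INSIG1 are themselves SREBP targets, and the pathway is active in lung epithelium, where lipids are needed for surfactant, and in dividing tumour cells, which build membrane.

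Proximal promoters are shown because the members share a known kind of control, and because SREBF2 holds the full letters of a sterol regulatory element. RefSeq start windows (GRCh38.p14, 250 bases before to 50 after a start) were matched for 26 of the 30 members. Of these, 4 windows are printed, chosen after the search among members with results described here, with the bases before the start only. Capitals mark TCACNCCAC or 8 of its 9 letters (TCACNCCA or CACNCCAC), the NF-Y box CCAAT and the TEAD hexamer GGAATG, each searched on both strands, so a match on the other strand reads as its reverse complement. SREBF2 (chr22:41832925-41833044, plus strand) reads as follows, with the full sterol element at -133 and an NF-Y box at -106, counted from the start.
SREBF2: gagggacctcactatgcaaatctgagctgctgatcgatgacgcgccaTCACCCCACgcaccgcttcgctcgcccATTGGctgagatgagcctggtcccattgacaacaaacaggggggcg
INSIG1 (chr7:155297648-155297767, plus strand) holds 8 of the 9 letters and an NF-Y box.
INSIG1: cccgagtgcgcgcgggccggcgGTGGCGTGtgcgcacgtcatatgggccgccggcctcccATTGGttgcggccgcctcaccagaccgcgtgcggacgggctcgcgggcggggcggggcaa
MSMO1 (chr4:165327474-165327603, plus strand) holds 8 of the 9 letters between NF-Y boxes.
MSMO1: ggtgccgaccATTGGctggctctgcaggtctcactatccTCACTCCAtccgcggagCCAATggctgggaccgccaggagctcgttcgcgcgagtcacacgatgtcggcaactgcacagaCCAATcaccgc
HSD17B7 (chr1:162790542-162790666, plus strand) holds an NF-Y box and a TEAD hexamer.
HSD17B7: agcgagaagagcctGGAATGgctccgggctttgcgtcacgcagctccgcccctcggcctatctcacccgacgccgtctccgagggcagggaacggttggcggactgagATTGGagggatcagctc

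Across the 26 matched members, TCACNCCAC was found in 1, SREBF2 (3.85%), against 1.39% of all 27305 genes with a window. Its 8-letter forms, which overlap the full element by construction, were found in 8 members (30.8%), against 10.2% of all genes. The NF-Y box was found in 20 members (76.9%), against 39.7%. The TEAD hexamer was found in 5 members (19.2%), namely PMVK, HSD17B7, EBP, STARD4 and FADS2, against 16.7%. The GC box GGGCGG was found in 25 members (96.2%), against 48.3% of all genes and 77.3% of the 10536 genes with a window that were tested in H1299. SREBF2 has no TEAD hexamer in its window. Matches are descriptions of these letters and not of binding.

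Read totals assigned to genes were 16.8 to 20.8 M in H1299 libraries, against 10.7 to 45.0 M in A549 libraries. YAP1 stood at 14.4% to 24.0% of the control mean under siYAP in H1299 and at 26.5% to 33.5% in A549. WWTR1 stood at 11.3% to 32.2% under siTAZ in H1299 and at 28.8% to 40.0% in A549. WWTR1 was also measured under siYAP in H1299, where it did not pass the test: it averaged 181.1 ± 19.3 CPM in siYAP, against 257.1 ± 24.7 CPM in siControl (SD, n = 3; log2 change -0.51, edgeR adjusted p = 0.204, and 0.0398 with the replicate number as a block). YAP1 averaged 100.9 ± 4.72 CPM in siTAZ, against 81.8 ± 3.37 CPM in siControl (0.30, adjusted p = 0.117, and 0.0316 with the block). Of the line markers, KRT8 and KRT18 were present in both lines, at 163.2 and 249.7 CPM in H1299 controls and 3458.5 and 1535.4 CPM in A549 controls. KRT19 and EPCAM stood at 0.253 and 0.154 CPM in H1299 controls, and CDH1 was not in the H1299 table. Under siYAP KRT8 was called higher in H1299 (0.36, adjusted p = 0.0396) and under siTAZ KRT18 lower (-0.37, adjusted p = 0.0138), and in A549 both were called lower under each siRNA. Not all epithelial markers fell there. Of 5 tested in A549, 3 were lower and 1 higher under siYAP, where 3.17% and 2.5% of all genes were called. Under siTAZ 3 were lower and 0 higher, where 6.12% and 7.21% were called. Of 11 markers of other cell types, 3 passed the filter in H1299 and 2 in A549. In H1299, 1 was called higher under siYAP and 2 under siTAZ, where 7.89% and 10.9% of all genes tested were called higher. With the block 2 of these markers were higher in each, where 4461 and 5606 genes were called in either direction. PDGFRB, a fibroblast marker, averaged 4.20 CPM in siYAP, 3.72 CPM in siTAZ and 2.13 CPM in siControl libraries (0.98 and 0.80, adjusted p = 0.0156 and 0.0324). VWF, an endothelial marker, averaged 0.610, 0.752 and 0.212 CPM in the same order (1.52 and 1.81, adjusted p = 0.0574 and 0.0187), on 3 to 22 reads per library. PECAM1, the third, had no call, and 0 were called in A549 (0 at an unadjusted p below 0.05). Their part in the members' changes was not tested.

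Levels are in CPM, the read count of a gene per M assigned reads after TMM scaling, mean levels are ± SD over 3 libraries (n = 3) and log2 changes are ± SE. The SE was derived from the test, as the absolute log2 change divided by the square root of its F statistic. A gene is called where edgeR's quasi-likelihood test gave an adjusted p below 0.05, with Benjamini-Hochberg adjustment over all genes tested in the line. The A549 fits hold the replicate number as a block and the H1299 fits do not. That choice rests on a DESeq2 refit of A549 with the block. It came within 0.001 of the authors' deposited log2 fold changes of siYAP over siControl for 99.99% of genes.

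SREBF2 was the member that fell most under siYAP in H1299. It stood at 234.0, 315.6 and 207.4 CPM in siYAP libraries, at 552.1, 489.8 and 492.0 CPM in siTAZ libraries and at 627.1, 552.8 and 566.7 CPM in siControl libraries. The siYAP libraries lay below all others, and the siTAZ libraries lay just below the controls without overlap. SREBF2 fell by 1.21 ± 0.13 under siYAP (adjusted p = 0.000297), to 43.3% of the control mean. Under siTAZ its log2 change was -0.19 ± 0.13 (adjusted p = 0.322). Set directly against siTAZ, siYAP had a log2 difference of -1.02 ± 0.13 (adjusted p = 0.000486, 95% interval -1.30 to -0.73). The siYAP calls held without each library in turn. The SREBF2 gene (chromosome 22, 41833079 to 41907308, plus strand, GRCh38) hosts MIR33A and overlaps the antisense gene SREBF2-AS1, whose reads cannot be told apart where counting ignores strand.

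In A549, SREBF2 stood at 272.5, 223.7 and 266.8 CPM in siYAP libraries, at 316.4, 283.5 and 303.8 CPM in siTAZ libraries and at 279.1, 255.7 and 266.1 CPM in siControl libraries. The siTAZ libraries were the highest, above all controls, and siYAP overlapped the controls. SREBF2 rose under siTAZ by 0.17 ± 0.04 (adjusted p = 0.0029), a call lost without siTAZ 2 (log2 change 0.15, adjusted p = 0.0606) and in the fit with no block (adjusted p = 1). Its change under siYAP was -0.08 ± 0.04 (adjusted p = 0.289). The siYAP libraries were lower than the siTAZ libraries by a log2 difference of -0.25 ± 0.04 (adjusted p = 4.87e-05). The siYAP effect in H1299 minus that in A549 was -1.13 ± 0.15 (interaction in a joint fit, adjusted p = 0.00164), and the siTAZ effect differed by -0.37 ± 0.15 (adjusted p = 0.154, and 0.0468 with the block in both lines). The SREBF2 interaction under siYAP also held without each library.

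**Figure D1:**
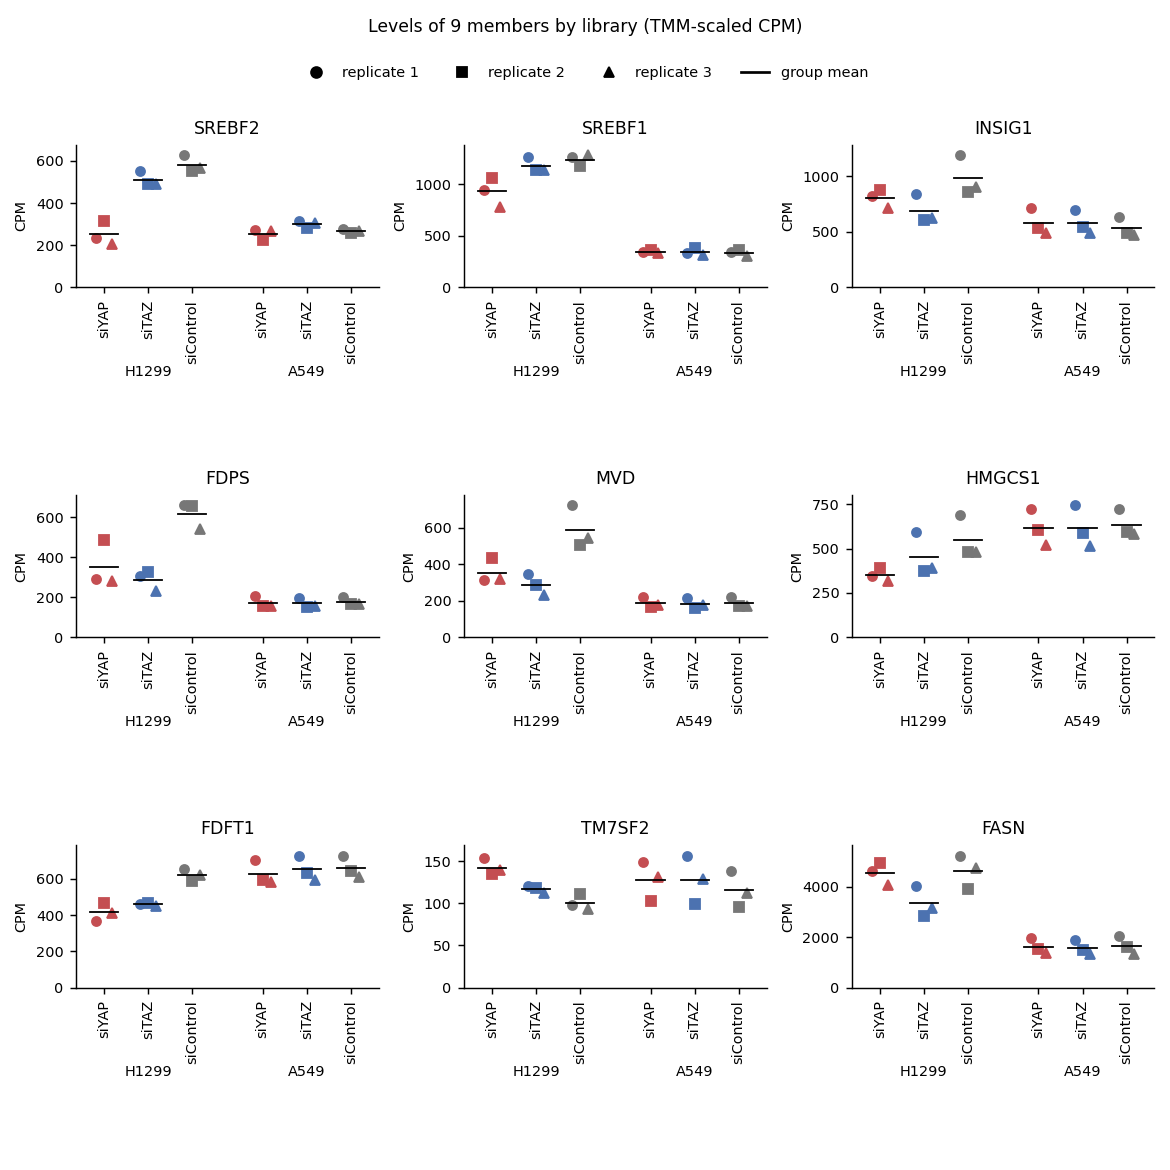
Levels of 9 members in TMM-scaled CPM (linear axis from 0), by siRNA in H1299 (left 3 groups) and A549 (right 3 groups), with 1 point per library, shapes for the replicate number and a line for the group mean. SREBF2 is at 207.4 to 315.6 CPM in H1299 siYAP and at 489.8 to 627.1 CPM in the other H1299 groups, while FDPS and MVD are low under both siRNAs in H1299.

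SREBF1 also fell under siYAP in H1299. Its siYAP libraries had 945.9, 1061.7 and 776.9 CPM, its siTAZ libraries 1258.1, 1134.6 and 1133.2 CPM and its siControl libraries 1262.6, 1172.6 and 1279.1 CPM. The siYAP libraries were below all the others, and siTAZ overlapped the controls. The log2 change was -0.42 ± 0.12 under siYAP (adjusted p = 0.027) and -0.08 ± 0.12 under siTAZ (adjusted p = 0.678). The siYAP call was lost without siYAP 1 (-0.44), siYAP 3 (-0.30), siControl 1 (-0.40) or siControl 3 (-0.40). Between siYAP and siTAZ the difference of -0.34 ± 0.12 did not pass (adjusted p = 0.0738) and passed with the block (0.0197). SREBF1 in A549 averaged 342.7 ± 14.7 CPM in siYAP, 342.0 ± 32.7 CPM in siTAZ and 335.3 ± 28.9 CPM in siControl libraries, with no call. The gene hosts MIR33B and overlaps RAI1 on the other strand.

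Of SCAP, INSIG1 and INSIG2, INSIG1 was called against controls in H1299, under siTAZ. INSIG1 had 826.9, 874.5 and 718.9 CPM in siYAP, 842.3, 607.3 and 621.0 CPM in siTAZ and 1190.9, 860.8 and 900.7 CPM in siControl libraries of H1299. The siTAZ libraries were below every control and the siYAP libraries overlapped them. INSIG1 fell under siTAZ by 0.51 ± 0.15 (adjusted p = 0.0251), a call lost without siTAZ 2 (-0.42), siTAZ 3 (-0.42) or siControl 1 (-0.34). Under siYAP its change of -0.29 ± 0.15 missed the threshold (adjusted p = 0.204) and passed with the block (-0.27, adjusted p = 0.0492). In A549, INSIG1 averaged 579.0 ± 118.6 CPM under siYAP and 575.4 ± 106.3 CPM under siTAZ, against 532.5 ± 90.8 CPM in siControl (changes 0.12 and 0.11, adjusted p = 0.0749 and 0.0534). It passed there without siControl 3, under siYAP (0.14, adjusted p = 0.0397) and under siTAZ (0.13, adjusted p = 0.0266). The lines differed in the INSIG1 siTAZ effect by -0.63 ± 0.17 (adjusted p = 0.0407).

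SCAP averaged 159.4 ± 10.8 CPM in siYAP, 140.7 ± 11.1 CPM in siTAZ and 143.7 ± 10.9 CPM in siControl libraries of H1299, and was not called in any comparison. INSIG2 averaged 27.9 ± 1.94, 22.9 ± 1.44 and 27.9 ± 2.41 CPM in the same order of groups. Its siTAZ change of -0.29 ± 0.10 had an adjusted p of 0.0526, and 0.0215 with the block. In A549 its siYAP change of 0.14 (adjusted p = 0.222) passed without siControl 3 (0.24, adjusted p = 0.015).

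Of the 30 members, 15 were lower and 1 higher under siYAP in H1299, where 8.75% of the 15775 genes tested were called lower and 7.89% higher. Under siTAZ 15 were lower and 0 higher, where 12.4% were called lower and 10.9% higher. SREBF2 is 1 of the 15 under siYAP and enters the siYAP counts and median below. Its fall was known when the set was proposed. Apart from the regulators, 13 of 25 members were lower and 1 higher under siYAP (median -0.37), and 14 and 0 under siTAZ (median -0.43). By DESeq2, 18 of the 30 members were lower and 1 higher under siYAP, and 16 were lower and 0 higher under siTAZ. DESeq2 called 2865 and 3742 of all genes in either direction. In edgeR, 20 members under siYAP and 21 under siTAZ had an unadjusted p below 0.05 in either direction. So did 5002 and 5867 of all genes tested. The median log2 change of the members was -0.36 under siYAP and -0.41 under siTAZ, while the median of all genes tested was 0.01 in each. Both comparisons use the same 3 controls, so their values are given side by side and no agreement between them is counted as a result. All 3 knockdown libraries lay below all 3 controls for 19 members under siYAP and 16 under siTAZ, as they did for 18.3% and 20.1% of all genes tested, and above them for 1 member in each, as for 17.8% and 18.6% of genes. With the block, 21 members were lower and 1 higher in each comparison. The block also raised the genes called among all tested, in either direction. They went from 2625 to 4461 under siYAP and from 3680 to 5606 under siTAZ. In bulk RNA, fewer cells of a kind and less RNA per cell cannot be told apart.

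Single libraries decided many of these calls. Under siYAP, 6 of the 16 calls held without each library in turn, those of SREBF2, ACAT2, IDI1, FDFT1, TM7SF2 and HSD17B7. The count of lower members was 6 without siYAP 1, 5 without siYAP 3, 6 without siControl 1 and 11 without siControl 3. Under siTAZ, 7 of the 15 held, those of MVD, IDI1, FDPS, FDFT1, HSD17B7, ACLY and FADS1. There the count was 7 without siTAZ 3 and 8 without siControl 1. The 16 and 15 called values kept their sign without each H1299 library.

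In the early mevalonate steps, which turn acetyl-CoA into farnesyl diphosphate, 6 of 7 enzymes were lower under siYAP in H1299 and 5 of 7 under siTAZ. Among all genes tested, 8.75% and 12.4% were called lower. FDPS, which makes farnesyl diphosphate, had 293.6, 483.9 and 279.2 CPM in siYAP, 307.0, 328.6 and 230.7 CPM in siTAZ and 659.0, 653.8 and 542.7 CPM in siControl libraries. Both knockdowns lay below the controls, and siYAP 2 was the highest of the knockdown libraries. FDPS fell by 0.81 ± 0.19 under siYAP (adjusted p = 0.0111) and by 1.10 ± 0.19 under siTAZ (adjusted p = 0.00179). The siYAP call was lost without siYAP 1 (-0.71) or siYAP 3 (-0.67). FDPS overlaps RUSC1-AS1 and has processed pseudogenes, 1 of them in the tables.

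MVD, the mevalonate diphosphate decarboxylase, had 314.0, 431.5 and 318.1 CPM in siYAP, 346.1, 284.8 and 234.0 CPM in siTAZ and 721.3, 503.0 and 543.3 CPM in siControl libraries. All knockdown libraries were below all controls. MVD fell by 0.73 ± 0.17 under siYAP (adjusted p = 0.0105) and by 1.03 ± 0.17 under siTAZ (adjusted p = 0.00145). The siYAP call was lost without siYAP 1 (-0.67), siYAP 3 (-0.66) or siControl 1 (-0.57).

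IDI1, which isomerises the isoprenoid building block, had 187.8, 281.2 and 190.6 CPM in siYAP, 220.3, 201.1 and 168.5 CPM in siTAZ and 446.1, 338.1 and 335.5 CPM in siControl libraries. The knockdown libraries did not overlap the controls. IDI1 fell by 0.76 ± 0.16 under siYAP (adjusted p = 0.00702) and by 0.92 ± 0.16 under siTAZ (adjusted p = 0.00191). IDI2-AS1 overlaps it on the other strand.

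ACAT2, the thiolase that joins acetyl-CoA units in the cytosol, had 106.7, 159.6 and 117.9 CPM in siYAP, 161.7, 145.6 and 133.7 CPM in siTAZ and 249.4, 202.8 and 214.0 CPM in siControl libraries. Again the knockdowns lay below every control. ACAT2 fell by 0.79 ± 0.14 under siYAP (adjusted p = 0.00262) and by 0.60 ± 0.14 under siTAZ (adjusted p = 0.00757). Without siTAZ 3 the siTAZ value was -0.51 (adjusted p = 0.0501). SOD2 and TCP1 overlap ACAT2 on the other strand.

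HMGCS1, the synthase of HMG-CoA, had 346.1, 389.1 and 315.0 CPM in siYAP, 596.3, 376.5 and 389.4 CPM in siTAZ and 688.5, 479.5 and 478.5 CPM in siControl libraries. Its siYAP libraries were below all controls and its siTAZ libraries overlapped them. It fell by 0.65 ± 0.18 under siYAP (adjusted p = 0.0246), lost without siYAP 1 (-0.65), siYAP 3 (-0.57) or siControl 1 (-0.46). Its siTAZ change was -0.27 ± 0.18 (adjusted p = 0.281), and the difference between the knockdowns was -0.38, with a 95% interval of -0.76 to 0.01.

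MVK, mevalonate kinase, averaged 51.2 ± 4.69 CPM in siYAP, 48.0 ± 2.91 CPM in siTAZ and 65.3 ± 8.15 CPM in siControl libraries. It fell by 0.35 ± 0.10 under siYAP (adjusted p = 0.0332) and by 0.45 ± 0.10 under siTAZ (adjusted p = 0.00841). The siYAP call was lost without siYAP 1 (-0.33), siYAP 3 (-0.30) or siControl 1 (-0.25), and the siTAZ call without siTAZ 3 (-0.38) or siControl 1 (-0.33). MMAB overlaps MVK. PMVK, phosphomevalonate kinase, was the member of this group with no call, at 21.6 ± 3.65 CPM in siYAP, 18.3 ± 1.56 CPM in siTAZ and 20.8 ± 1.64 CPM in siControl libraries.

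**Figure D2:**
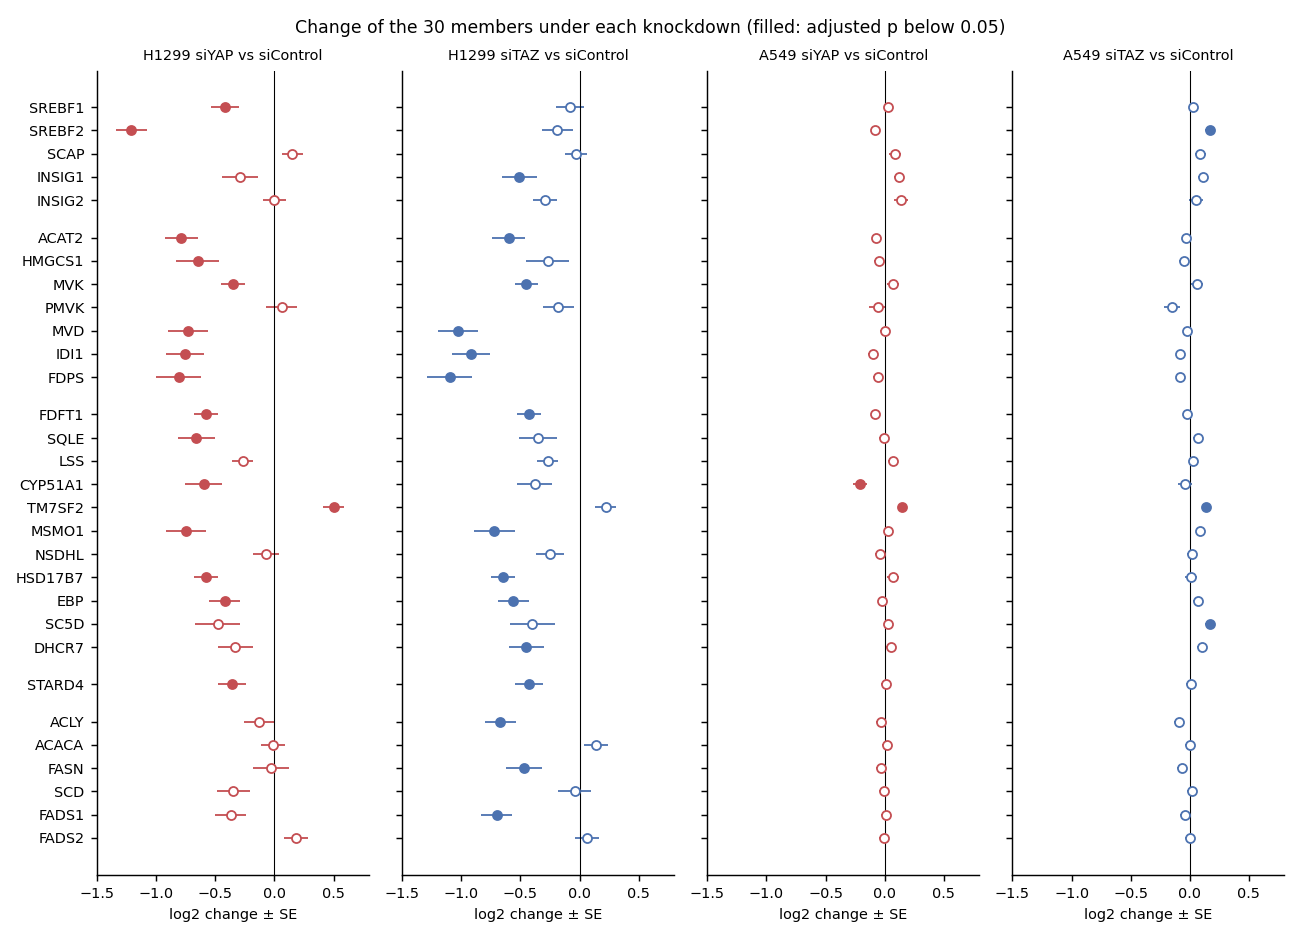
Log2 changes ± SE of the 30 members against siControl, by role from the top (regulators, early mevalonate steps, squalene to cholesterol, STARD4, fatty acids), in H1299 and A549 under siYAP and siTAZ. Filled points have an edgeR adjusted p below 0.05: 16 and 15 are filled in H1299, and 2 and 3 in A549, where the changes lie between -0.21 and 0.17.

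From squalene to cholesterol, 6 of 11 enzymes were lower and 1 was higher under siYAP in H1299, and 5 were lower under siTAZ. Among all genes tested, 8.75% were lower and 7.89% higher under siYAP, and 12.4% were lower under siTAZ. With the block, 9 and 10 of the 11 enzymes were lower and 1 higher in each, with LSS, SC5D and DHCR7 added under siYAP. In that fit 4461 of all genes tested were called under siYAP and 5606 under siTAZ, in either direction. FDFT1, squalene synthase, had 369.3, 467.2 and 413.5 CPM in siYAP, 463.9, 469.3 and 449.2 CPM in siTAZ and 655.9, 590.3 and 622.5 CPM in siControl libraries. The controls stood clear of both knockdowns. FDFT1 fell by 0.58 ± 0.10 under siYAP (adjusted p = 0.00245) and by 0.43 ± 0.10 under siTAZ (adjusted p = 0.00702).

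HSD17B7, a sterol ketoreductase, had 30.4, 38.1 and 31.0 CPM in siYAP, 34.1, 30.4 and 30.6 CPM in siTAZ and 53.9, 46.4 and 48.8 CPM in siControl libraries. No knockdown library reached a control. It fell by 0.58 ± 0.10 under siYAP (adjusted p = 0.0032) and by 0.65 ± 0.10 under siTAZ (adjusted p = 0.00138). Its pseudogene HSD17B7P2 is in the tables and may share reads.

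MSMO1, the methylsterol monooxygenase, had 256.5, 297.8 and 238.0 CPM in siYAP, 342.4, 218.9 and 244.2 CPM in siTAZ and 554.4, 359.2 and 416.0 CPM in siControl libraries. The knockdowns lay below the controls, siTAZ 1 by the least. It fell by 0.75 ± 0.17 under siYAP (adjusted p = 0.0112) and by 0.72 ± 0.17 under siTAZ (adjusted p = 0.00957). Both calls were lost without siControl 1 (-0.56 under siYAP and -0.52 under siTAZ), the first also without siYAP 3 (-0.67) and the second also without siTAZ 3 (-0.64).

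EBP, a sterol isomerase, averaged 143.8 ± 9.70 CPM in siYAP, 131.0 ± 19.8 CPM in siTAZ and 192.5 ± 34.5 CPM in siControl libraries. It fell by 0.42 ± 0.13 under siYAP (adjusted p = 0.042) and by 0.56 ± 0.13 under siTAZ (adjusted p = 0.00907). The siYAP call was lost without siYAP 1 (-0.46), siYAP 2 (-0.45), siYAP 3 (-0.36), siTAZ 3 (-0.41), siControl 1 (-0.30) or siControl 3 (-0.41). The siTAZ call was lost without siTAZ 3 (-0.50) or siControl 1 (-0.42).

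SQLE, squalene epoxidase, and CYP51A1, the lanosterol demethylase, were called lower under siYAP. SQLE averaged 628.7 ± 34.3 CPM in siYAP, 777.5 ± 184.2 CPM in siTAZ and 992.2 ± 195.8 CPM in siControl libraries (-0.66 ± 0.16 under siYAP, adjusted p = 0.016; -0.35 ± 0.16 under siTAZ, adjusted p = 0.133). CYP51A1 averaged 11.8 ± 0.886, 13.8 ± 1.91 and 17.9 ± 3.84 CPM in siYAP, siTAZ and siControl libraries (-0.60 ± 0.16 under siYAP, adjusted p = 0.02; -0.38 ± 0.15 under siTAZ, adjusted p = 0.0915). The siTAZ values passed with the block for SQLE (adjusted p = 0.0202) and CYP51A1 (0.0147). The SQLE siYAP call was lost without siYAP 1 (-0.68), siYAP 3 (-0.61) or siControl 1 (-0.51), and that of CYP51A1 also without siControl 3 (-0.60), with -0.64, -0.63 and -0.44 without the first 3. CYP51A1 overlaps other annotated genes and has pseudogenes in the tables.

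TM7SF2, a sterol reductase, was the member that rose under siYAP. It had 154.1, 134.6 and 139.2 CPM in siYAP, 121.2, 118.3 and 111.8 CPM in siTAZ and 98.4, 110.8 and 93.0 CPM in siControl libraries of H1299. The siYAP libraries were above all others, and siTAZ lay just above the controls. It rose by 0.50 ± 0.09 under siYAP (adjusted p = 0.00295). Under siTAZ the change of 0.22 ± 0.09 had an adjusted p of 0.0907, and 0.0355 with the block. VPS51 overlaps TM7SF2 on the same strand, so part of these reads may be counted for either.

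The other 4 enzymes had negative values with fewer calls. LSS, lanosterol synthase, averaged 568.6 ± 38.0 CPM in siYAP, 567.7 ± 39.7 CPM in siTAZ and 684.0 ± 40.3 CPM in siControl libraries, a change of -0.27 ± 0.09 in each (adjusted p = 0.0673 under siYAP and 0.0532 under siTAZ). Both LSS values passed with the block (adjusted p = 0.0232 and 0.0173). DHCR7, the reductase of the last step, averaged 536.7 ± 60.9 CPM in siYAP, 490.8 ± 92.3 CPM in siTAZ and 809.2, 550.6 and 657.5 CPM in the siControl libraries. It fell by 0.45 ± 0.15 under siTAZ (adjusted p = 0.0452) with overlapping groups. That call was lost without siTAZ 2 (-0.36), siTAZ 3 (-0.36), siControl 1 (-0.29), siControl 3 (-0.47) or any siYAP library (-0.44 to -0.45).

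SC5D, a sterol desaturase, averaged 133.1 ± 21.2 CPM in siYAP, 140.9 ± 40.5 CPM in siTAZ and 185.8 ± 39.5 CPM in siControl libraries (adjusted p = 0.0984 and 0.142, and 0.0145 and 0.0201 with the block). NSDHL, a sterol dehydrogenase, averaged 106.5 ± 6.78 CPM in siYAP, 93.7 ± 12.1 CPM in siTAZ and 111.4 ± 16.4 CPM in siControl libraries (adjusted p = 0.734 and 0.131). The second of these passed with the block (0.0155). STARD4, which carries sterol between membranes, averaged 128.7 ± 9.69 CPM in siYAP, 136.2, 106.6 and 125.6 CPM in the siTAZ libraries and 164.9 ± 24.5 CPM in siControl libraries. It fell by 0.36 ± 0.12 under siYAP (adjusted p = 0.049) and by 0.43 ± 0.12 under siTAZ (adjusted p = 0.0183). The siYAP call was lost without siYAP 1 (-0.35), siYAP 3 (-0.31), siTAZ 3 (-0.35), siControl 1 (-0.24) or siControl 3 (-0.40), and the siTAZ call without siTAZ 2 (-0.32), siTAZ 3 (-0.42) or siControl 1 (-0.29).

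Of the 6 fatty acid genes, 0 were called under siYAP in H1299 by edgeR (2 at an unadjusted p below 0.05) and 3 were lower under siTAZ. Among all genes tested, 8.75% were called lower and 7.89% higher under siYAP, and 12.4% lower under siTAZ. With the block, SCD and FADS1 passed as lower under siYAP, and DESeq2 called the same pair. FADS1, a fatty acid desaturase, had 404.1, 442.6 and 329.9 CPM in siYAP, 348.2, 310.2 and 279.1 CPM in siTAZ and 568.3, 444.0 and 508.2 CPM in siControl libraries. All its knockdown libraries were below the controls, siYAP 2 narrowly. Its change was -0.37 ± 0.13 under siYAP (adjusted p = 0.059) and -0.70 ± 0.13 under siTAZ (adjusted p = 0.00235). FADS2, a neighbour that overlaps FADS1 on the other strand, averaged 78.5 ± 8.81 CPM in siYAP, 72.1 ± 3.59 CPM in siTAZ and 69.0 ± 5.77 CPM in siControl libraries (adjusted p = 0.207 and 0.683).

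ACLY, which supplies cytosolic acetyl-CoA to both routes, had 718.3, 794.6 and 690.4 CPM in siYAP, 586.3, 490.5 and 436.2 CPM in siTAZ and 946.1, 747.6 and 716.2 CPM in siControl libraries. The siTAZ libraries were the lowest, and siYAP overlapped the controls. ACLY fell under siTAZ by 0.67 ± 0.13 (adjusted p = 0.00324), and its siYAP change was -0.13 ± 0.13 (adjusted p = 0.529). The direct difference of siYAP over siTAZ was 0.54 ± 0.13 (adjusted p = 0.0162), lost without siYAP 2 (0.47) or siTAZ 3 (0.44).

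FASN, fatty acid synthase, averaged 4546.0 ± 430.7 CPM in siYAP, 3354.5 ± 611.9 CPM in siTAZ and 4642.3 ± 664.4 CPM in siControl libraries. It fell by 0.47 ± 0.15 under siTAZ (adjusted p = 0.0406) with overlapping groups. That call was lost without siTAZ 2 (-0.36), siTAZ 3 (-0.41), siControl 1 (-0.36), siControl 3 (-0.45), any siYAP library (-0.45 to -0.47), and in a fit of those 2 groups alone (adjusted p = 0.0735). SCD, stearoyl-CoA desaturase, averaged 9812.9 ± 1132.7 CPM in siYAP, 12188.4 ± 871.0 CPM in siTAZ and 12527.3 ± 693.4 CPM in siControl libraries (adjusted p = 0.0984 under siYAP, 0.0248 with the block). ACACA, acetyl-CoA carboxylase, averaged 208.8 ± 17.7, 232.0 ± 19.9 and 210.6 ± 19.0 CPM in siYAP, siTAZ and siControl libraries, with no call.

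The enzymes were then set beside SREBF2, by comparing siYAP with siTAZ directly, in the fit over all 9 H1299 libraries. SREBF2 averaged 252.3 ± 56.4 CPM under siYAP and 511.3 ± 35.4 CPM under siTAZ (SD, n = 3 each). The summed level of the 18 cholesterol enzymes was 4287.5, 5015.5 and 4086.9 CPM in siYAP and 5303.8, 4140.2 and 4159.4 CPM in siTAZ libraries, against 7540.3, 5771.3 and 6220.1 CPM in siControl libraries. The enzyme sums of the knockdowns overlapped each other and lay below the controls. SREBF2 also lay below the controls in all knockdown libraries, narrowly under siTAZ, but its siYAP libraries lay below all siTAZ libraries. Of the 18 enzymes, 0 were called between siYAP and siTAZ by edgeR (1 at an unadjusted p below 0.05, TM7SF2), where 6.1% of all genes tested were called lower and 5.6% higher. DESeq2 called 1, TM7SF2 (0.28, adjusted p = 0.0444), as did the fit with the block (0.29, adjusted p = 0.0136).

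Their direct differences ranged from -0.38 for HMGCS1 to 0.30 for MVD. The 95% intervals reached from -0.06 to 0.66 for MVD, from -0.11 to 0.69 for FDPS, from -0.49 to 0.09 for ACAT2, from -0.35 to 0.06 for FDFT1 and from -0.20 to 0.20 for LSS. Those with the lowest ends reached from -0.76 to 0.01 for HMGCS1, from -0.66 to 0.04 for SQLE and from -0.56 to 0.12 for CYP51A1. Of the enzymes, 7 had a negative and 11 a positive difference. The SREBF2 difference of -1.02 was known when the set was proposed, so setting it beside these intervals is a description and no test. Its own interval, -1.30 to -0.73, overlapped that of HMGCS1. Among all 30 members, SREBF2 was called lower and ACLY higher. By DESeq2 3 were lower (SREBF2, SREBF1 and SCD) and 3 higher (ACLY, FASN and TM7SF2), and with the block 2 were lower (SREBF2 and SREBF1) and 5 higher (ACLY, FASN, FADS1, INSIG2 and TM7SF2). Of all genes tested, DESeq2 called 2088 and the fit with the block 3399 in either direction, against 1846 in the main fit.

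**Figure D3:**
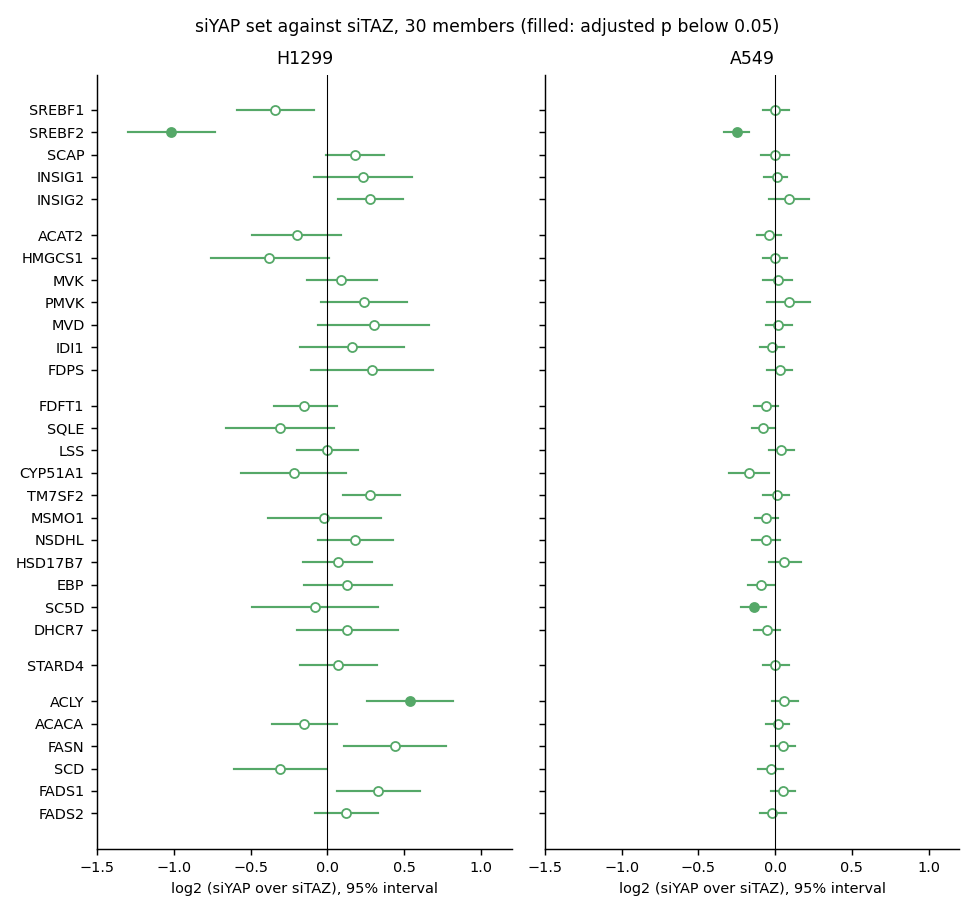
Log2 difference of siYAP over siTAZ with its 95% interval for the 30 members, in H1299 (left) and A549 (right), ordered by role as above, with filled points at an edgeR adjusted p below 0.05. In H1299 SREBF2 lies at -1.02 and ACLY at 0.54, and the intervals of most cholesterol enzymes cross 0.

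In A549, 1 of the 30 members was lower and 1 higher under siYAP, where 3.17% and 2.5% of the 16008 genes tested were called. Under siTAZ 3 were higher and 0 lower, where 7.21% and 6.12% were called (9 had an unadjusted p below 0.05, and DESeq2 called 2 higher and 0 lower). The changes ran from -0.21 to 0.15 under siYAP and from -0.15 to 0.17 under siTAZ, and the medians of the 18 enzymes were -0.02 and 0.02. Without the block 0 members were called in any A549 comparison by edgeR, and 1 or 2 genes of the whole table.

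FDPS and MVD, low under both siRNAs in H1299, were not called in A549. FDPS had 205.5, 156.2 and 159.0 CPM in siYAP, 195.7, 153.8 and 159.0 CPM in siTAZ and 202.7, 167.3 and 167.6 CPM in siControl libraries. MVD had 218.5, 164.6 and 176.4 CPM in siYAP, 212.9, 158.6 and 178.1 CPM in siTAZ and 218.4, 169.7 and 169.6 CPM in siControl libraries. The groups overlapped for both genes, and replicate 1 was the highest library of each group. The changes were -0.06 and -0.08 for FDPS (adjusted p = 0.488 and 0.168) and 0.00 and -0.02 for MVD (adjusted p = 1 and 0.767), under siYAP and siTAZ.

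The A549 calls were small. CYP51A1 had 21.1, 19.4 and 16.7 CPM in siYAP and 26.1, 21.8 and 19.1 CPM in siControl libraries, lower in each same-numbered pair though the groups overlapped. It fell by 0.21 ± 0.06 (adjusted p = 0.0426). TM7SF2 had 149.7, 102.5 and 131.9 CPM in siYAP, 156.8, 98.8 and 128.4 CPM in siTAZ and 138.4, 95.4 and 112.0 CPM in siControl libraries. It was higher than its same-numbered control in all 3 pairs of each comparison, by 0.15 ± 0.04 under siYAP (adjusted p = 0.0293) and 0.14 ± 0.04 under siTAZ (adjusted p = 0.0208). SC5D had 158.1, 121.0 and 129.2 CPM in siYAP, 166.5, 134.9 and 145.1 CPM in siTAZ and 148.5, 121.7 and 126.1 CPM in siControl libraries. It rose by 0.17 ± 0.04 under siTAZ (adjusted p = 0.00257), and was lower under siYAP than under siTAZ by -0.14 ± 0.04 (adjusted p = 0.0286).

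Several of these rested on single libraries or on the tool. CYP51A1 lost its call by DESeq2 (adjusted p = 0.183) and without siYAP 1 (-0.21), siYAP 2 (-0.24), siYAP 3 (-0.22), siTAZ 2 (-0.21), siControl 1 (-0.18) or siControl 2 (-0.26). TM7SF2 lost its siYAP call by DESeq2 (0.126) and without siYAP 1 (0.17), siYAP 2 (0.15), siYAP 3 (0.11), siTAZ 1 (0.14), siControl 1 (0.14) or siControl 3 (0.11). Its siTAZ call was lost by DESeq2 (0.0695) and without siTAZ 1 (0.10), siTAZ 3 (0.13), siControl 1 (0.13) or siControl 3 (0.11). The SC5D difference between siYAP and siTAZ was lost by DESeq2 (0.053) and without siYAP 2 (-0.12), siYAP 3 (-0.14), siTAZ 1 (-0.15), siTAZ 2 (-0.14) or siTAZ 3 (-0.12). Between siYAP and siTAZ in A549, 2 members were lower and 0 higher, where 4.52% and 2.52% of all genes were called (5 members had an unadjusted p below 0.05, and DESeq2 called SREBF2 alone, as lower).

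The members varied in A549 with the replicate number more than with the siRNA. Of 30 members, 27 had a larger share of their variance over the 9 libraries between replicate numbers than between siRNAs, with a median share of 92.1% against 3.66% (57.3% and 15.9% over all genes tested). SREBF2 was among the 3 others, with 58.3% between siRNAs and 34.4% between replicate numbers. The summed level of the 18 enzymes was 5954.9, 6063.4 and 5909.4 CPM in replicate 1 of siYAP, siTAZ and siControl, and 4539.2 to 4704.9 CPM in the other 6 libraries. In H1299, 25 members varied more with the siRNA (median share 69.7%, and 14.4% between replicate numbers, against 52.8% and 19.7% over all genes tested). The meaning of the replicate number was not stated in the labels.

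The lines were compared by the interaction of siRNA and line. Under siYAP, 4 members had a more negative change in H1299 than in A549 and 0 a less negative one, where 1.31% and 0.955% of the 15816 genes tested were called. SREBF2, whose pattern was known when the set was proposed, is 1 of the 4 and is no independent result. The others were HSD17B7 (-0.67 ± 0.12, adjusted p = 0.0108), FDFT1 (-0.50 ± 0.11, adjusted p = 0.0235) and ACAT2 (-0.72 ± 0.16, adjusted p = 0.0247). Of all 30, 21 had an unadjusted p below 0.05, and DESeq2 called 12 lower and 1 higher. With the block in both lines 19 were lower and 1 higher, and with no block 1 was lower, SREBF2. Of all genes tested, DESeq2 called 746, the block in both lines 1712 and no block 13, in either direction, against 358 in the main fit.

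Under siTAZ, 12 members were more negative in H1299 and 0 less negative, where 3.24% and 2.73% of genes were called. They were led by HSD17B7 (-0.67 ± 0.12, adjusted p = 0.00597), MVD (-1.02 ± 0.20, adjusted p = 0.00784), FDPS (-1.02 ± 0.22, adjusted p = 0.0128) and IDI1 (-0.85 ± 0.19, adjusted p = 0.0157). The others were INSIG1, ACAT2, MVK, FDFT1, MSMO1, EBP, ACLY and FADS1, from -0.42 to -0.82. DESeq2 called 15 lower and 0 higher, the block in both lines gave 21 lower, and with no block 0 were called. Of all genes tested, these fits called 1302, 2797 and 60 in either direction, against 943 in the main fit. Few of the members' interaction calls in the main fit held without each library in turn: SREBF2 under siYAP, and MVD and HSD17B7 under siTAZ. The count under siYAP was 1 without A549 siYAP 1 or siControl 1, and 2 without A549 siYAP 2, siYAP 3, siControl 2 or siControl 3 or H1299 siYAP 1, siYAP 3 or siControl 1. It was 8 and 11 without H1299 siTAZ 1 and siTAZ 2, and 12 without H1299 siYAP 2 or siControl 2. Under siTAZ it was 2 without A549 siControl 1 and 3 without H1299 siTAZ 3, H1299 siControl 1 or A549 siTAZ 1, and 4 without A549 siTAZ 2, siTAZ 3, siControl 2 or siControl 3.

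Levels of the members in the lines were described and not tested. TMM scaling was done within each line, so levels in H1299 and A549 are not on a shared scale. Per kb of annotated exon, SCD was the highest member in controls, at 2336.3 CPM per kb in H1299 and 1382.4 CPM per kb in A549. FADS2 stood at 6.26 ± 0.523 CPM per kb in H1299 controls and 169.6 ± 17.7 CPM per kb in A549 controls. SREBF2 stood at 77.0 ± 5.23 and 35.3 ± 1.55 CPM per kb in H1299 and A549 controls, and SREBF1 at 154.2 ± 7.14 and 41.8 ± 3.6 CPM per kb. The H1299 siYAP level of SREBF2 was 33.4 ± 7.46 CPM per kb.

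Neighbouring genes of the pathway were counted in the same fits, where 8.75% of all genes tested were called lower under siYAP and 12.4% under siTAZ in H1299. With the block, 4461 and 5606 of the genes tested were called there in either direction, and 3399 between siYAP and siTAZ. Counts of 1 to 3 in lists this short are not a result about the lists. Of 6 genes of SREBP cleavage and turnover, 0 were called under siYAP in H1299 (1 at an unadjusted p below 0.05, and 1 lower with the block), led by ERLIN1 (-0.25 ± 0.08, adjusted p = 0.0566). Under siTAZ 1 was lower, again ERLIN1 (-0.32 ± 0.08, adjusted p = 0.0165), which encodes a membrane protein of the endoplasmic reticulum. The ERLIN1 gene overlaps CHUK. Of 12 other SREBP-responsive genes, 2 were lower under siYAP, led by the fatty acid elongase ELOVL5 (-0.60 ± 0.12, adjusted p = 0.00603), and 6 under siTAZ, led by the sterol-responsive membrane protein TMEM97 (-0.94 ± 0.17, adjusted p = 0.00275). With the block these were 4 and 9. Between siYAP and siTAZ, PCYT2 of phospholipid synthesis led that list and was higher under siYAP (0.34 ± 0.09, adjusted p = 0.0245), as was DHDDS of dolichol synthesis in the isoprenoid branch (0.26 ± 0.08, adjusted p = 0.0485). Of 8 genes of the isoprenoid branch, 2 were lower under siYAP, led by COQ2 of coenzyme Q synthesis (-0.42 ± 0.10, adjusted p = 0.0146), and 3 under siTAZ, led by PDSS1 of the same route (-0.69 ± 0.14, adjusted p = 0.00395). With the block these were 3 and 3, and between siYAP and siTAZ 2 of this list and 4 of the responsive genes were higher. In A549 these lists held 1 call under siYAP, ELOVL6 as higher (0.14 ± 0.04, adjusted p = 0.0302), 1 under siTAZ, ELOVL5 as lower (-0.13 ± 0.04, adjusted p = 0.0165), and 1 between siYAP and siTAZ, LPIN1 as higher under siYAP (0.16 ± 0.04, adjusted p = 0.011). The smallest adjusted p of the processing and isoprenoid lists against A549 controls were 0.372 (MBTPS1) and 0.408 (GGPS1) under siYAP and 0.147 (RNF139) and 0.293 (FNTA) under siTAZ.

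Proliferation markers, like the enzymes, were lower in both knockdown groups than in controls in H1299. All 10 markers, such as MKI67 and MCM6, were lower in each comparison, with medians of -0.95 under siYAP and -0.82 under siTAZ. Of all genes tested, 8.75% and 12.4% were called lower. Their summed level was 977.2 to 1428.8 CPM in siYAP and 1038.7 to 1309.8 CPM in siTAZ libraries, against 1764.0 to 2451.3 CPM in siControl libraries. Among the H1299 controls the enzyme sum was highest in replicate 1 (7540.3 CPM) and the marker sum in replicate 3 (2451.3 CPM). In A549, 9 were lower under siYAP and 7 under siTAZ, with medians of -0.26 and -0.21, where 3.17% and 6.12% of all genes were called lower. There the enzymes and the markers parted by replicate number: replicate 3 had the lowest marker sums, 570.8, 585.1 and 664.7 CPM in siYAP, siTAZ and siControl, while replicate 1 had the highest enzyme sums. The part of proliferation in the changes of the members was not tested.

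**Figure D4:**
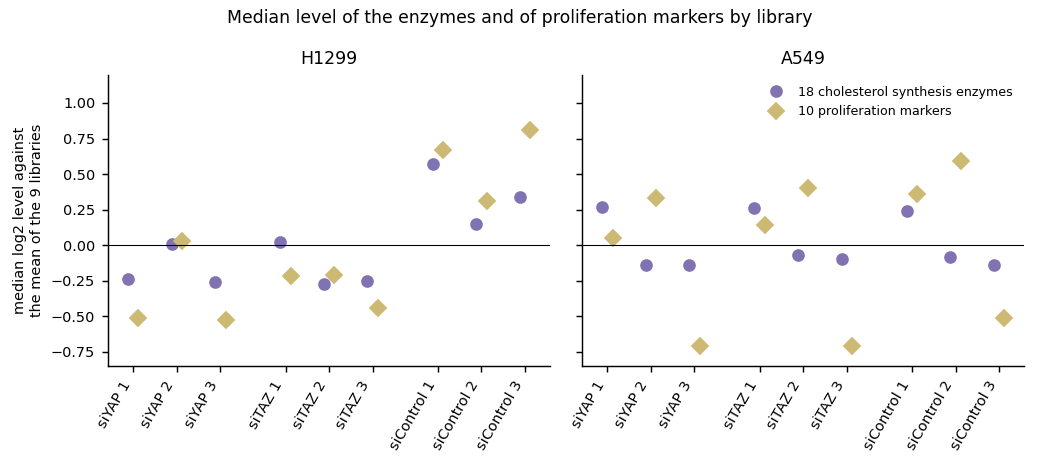
Median log2 level of the 18 cholesterol enzymes (circles) and of 10 proliferation markers (diamonds) in each library, against the mean of the 9 libraries of its line, in H1299 (left) and A549 (right). In H1299 the controls are the highest for both sets, at 0.15 to 0.57 for the enzymes, and in A549 the enzymes are highest in replicate 1 of each group, at 0.24 to 0.27.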

How the data were processed

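Per the submitters' processing notes, reads were trimmed (cutadapt) and mapped to GRCh38 with STAR 2.4.2a, and DESeq2 was applied. How reads were assigned to genes, and whether by strand, is not stated in the sources at hand. The values analysed were raw gene counts, deposited by the authors in 1 table per line. The authors' deposited log2 fold changes and adjusted p-values, made by DESeq2 comparisons per the file headers and notes, served only to find their model. A DESeq2 1.42.0 refit came within 0.001 of their siYAP over siControl log2 fold changes for 100% of H1299 genes with no block, and for 99.99% of those in A549 once replicate number was a block. Their other comparisons were not checked in this way. The other 36 columns of per-sample values were not used.

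Each line was fitted over its 9 libraries with edgeR 4.0.16 (R 4.3.3): filterByExpr by group, TMM and the quasi-likelihood F test. Lines were compared as interactions over all 18 libraries, with the replicate number as a block within A549 only. Scripts were tested on simulated data. Same-numbered libraries of different groups deviated together (correlations of 0.108 to 0.383 in H1299 and 0.384 to 0.729 in A549, all above 0.1), so the numbers were taken to pair the libraries. Differently numbered libraries had correlations of -0.324 to 0.16 in H1299, which overlap the range above, and of -0.55 to 0.279 in A549. The main H1299 fits do not use the pairing, and calls with the block are given beside them. Replicates differed by more than sampling noise (chi-square per degree of freedom of 6.54 to 30.7). GENCODE 29, used for positions and lengths, held 97.9% of the symbols. Members, lists, tests and alternatives were chosen with earlier results of these data known. All members are accounted for. Full statistics go to the regulators, to the 3 members of each role with the smallest adjusted p in each H1299 knockdown, and to every member called in A549, between knockdowns or between lines. Of each list of neighbours, the gene with the smallest adjusted p is named.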

Additional observations from a re-analysis of the deposited data

Results flagged for a closer look

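Differences between the lines in the effect of an siRNA, tested as an interaction and given as H1299 minus A549 in log2, are listed here for a closer look. Under siYAP they were -0.72 for ACAT2, -0.67 for HSD17B7 and -0.50 for FDFT1. The value of -1.13 for SREBF2 describes the pattern with which the set was proposed and is no independent result. Under siTAZ they were -1.02 for MVD, -1.02 for FDPS, -0.85 for IDI1, -0.82 for MSMO1, -0.67 for HSD17B7, -0.67 for FADS1, -0.64 for EBP, -0.63 for INSIG1, -0.59 for ACLY, -0.57 for ACAT2, -0.51 for MVK and -0.42 for FDFT1. The residual level of the targeted transcript differed between the lines: YAP1 under siYAP was at 18.0% of control in H1299 and 29.7% in A549, and WWTR1 under siTAZ at 19.2% and 32.7%. Its part in these differences was not tested.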

How the results depend on the processing

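The medians of the members against controls stayed negative in H1299, and 0 results reversed, under every alternative run (DESeq2, RLE scaling, no filter on low counts, other blocks, the 2 groups alone, libraries left out). Scaling by RLE and dropping the filter kept every count within 1.5 times. SREBF2 stayed between -1.43 and -1.08 under siYAP in H1299 (largest adjusted p 0.0422), and its siYAP interaction between -1.42 and -0.98 (largest adjusted p 0.228). With 10.7 M or more assigned reads per library, all members passed the filter. The cause of the differences below was not tested.

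With the replicate block, genes called in H1299 were 4461 under siYAP, 5606 under siTAZ and 3399 between them, with 1 member higher under siTAZ, and 5 higher and 2 lower between siYAP and siTAZ. The block changed no other call of a member within H1299 than those named beside the results. By DESeq2, 3 members were higher and 3 lower between siYAP and siTAZ in H1299. In A549, DESeq2 called 363 genes under siYAP, 1139 under siTAZ and 518 between them, with 0 members in each direction under siYAP and 1 lower between siYAP and siTAZ. With no replicate block, A549 had 1, 1 and 2 genes called in the same order and 0 members. For the siYAP interaction, DESeq2 called 746 genes, with 12 members lower and 1 higher. No replicate block gave 13 genes for the siYAP and 60 for the siTAZ interaction, with 1 and 0 members lower. The replicate block within each line gave 1712 and 2797 genes, with 19 members lower and 1 higher for siYAP and 21 lower for siTAZ.

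Without 1 library, genes called ranged from 1124 to 3076 under siYAP, 1715 to 4301 under siTAZ and 856 to 2102 between them in H1299, from 164 to 1027, 1057 to 2142 and 308 to 1276 in A549, and from 46 to 1373 and 222 to 2025 for the siYAP and siTAZ interactions. In the same order, members called lower ranged from 5 to 17, 7 to 19 and 1 to 3, from 0 to 1, 0 to 0 and 1 to 2, and from 1 to 12 and 2 to 18. Members called higher ranged from 1 to 1, 0 to 1 and 0 to 2, from 0 to 2, 2 to 3 and 0 to 0, and from 0 to 1 and 0 to 0. Without 1 replicate number in every group, which leaves 2 libraries each, genes called ranged from 34 to 4430, 144 to 5267 and 190 to 2945, from 157 to 739, 940 to 1593 and 289 to 703, and from 0 to 1612 and 0 to 2356. Members called lower then ranged from 1 to 21, 1 to 18 and 1 to 6, from 0 to 0, 0 to 1 and 1 to 1, and from 0 to 18 and 0 to 15, and members called higher from 0 to 1, 0 to 1 and 0 to 3, from 0 to 1, 1 to 3 and 0 to 0, and from 0 to 1 and 0 to 0. Without number 1, H1299 had 114 genes and 1 lower member under siYAP, 719 genes and 9 lower members under siTAZ and 468 genes between them, and A549 had 320, 1234 and 639 genes.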
